A study of Mus musculus with 43 samples.

Results

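The HDM15wk_Iso libraries are 4 lung RNA libraries from mice that were challenged with house dust mite (HDM) over 15 weeks and received an isotype control antibody, an antibody of no intended target that serves as the control for a therapeutic one. They were set against the 7 Saline libraries, from mice given saline in place of HDM, across all genes. Both groups were taken by their labels, so 11 of the 43 libraries of the series are compared. The other libraries, after 4 weeks of HDM (HDM4wk), 15 weeks of HDM with no antibody (HDM15wk, 7 libraries) and 15 weeks with anti-IL-33 (HDM15wk_antiIL33), entered the same fit to share its estimate of the spread. All mice carried the genotype Il33hu/hu, on a background of C57BL/6NTac (75%) and 129S6SvEvTac (25%), so the saline mice carried it too. The labels give the tissue as lung and give no age. They give no time point for the saline mice, and no group that received saline with the isotype antibody is among them. In this contrast HDM, the antibody and time therefore cannot be told apart.

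HDM is an airway allergen with protease activity. In lung it is known to release alarmins such as IL-33 and TSLP from the epithelium, which act on innate lymphoid cells, mast cells and T helper 2 cells. Those cells make the type 2 cytokines IL-4, IL-5 and IL-13, which draw in eosinophils, turn airway epithelium toward mucus production and drive the alternative state of macrophages. A second arm, led by IL-17 and IL-1 family cytokines, is known to draw neutrophils. The series' design text describes prolonged HDM as a model of lasting airway disease with a mixed inflammatory picture, and the isotype libraries offer a look at that chronic state in lungs other than those of the HDM15wk group.

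Values are CPM, each library's counts scaled to a common total, and fold changes are log2 values of HDM15wk_Iso over Saline with the SE of the fit. A gene is said to have risen, fallen or been called where its Benjamini-Hochberg (BH) adjusted p in edgeR's quasi-likelihood test was under 0.05. Total counts were 8354316 to 10243469 in the 4 isotype libraries and 7090950 to 12414078 in the 7 saline libraries. Sample numbers in the labels fall in 2 ranges, called number ranges 1 and 2; their meaning is nowhere stated in the labels. The isotype group has 3 libraries in number range 1 and 1 in number range 2 (replicate 4), and the saline group has 2 and 5, so the fit carries a term for the range. As lung should, the libraries held surfactant and club cell transcripts: Sftpc, a type II cell surfactant gene, was at 12660 to 22450 CPM in isotype and 7725 to 10980 CPM in saline libraries, and Scgb1a1, a club cell gene, at 4644 to 7032 CPM in isotype and 13370 to 24010 CPM in saline libraries. The first principal component (36.6% of the variance) placed isotype libraries between 20.6 and 47.2, and saline libraries between -77.7 and -58.9. Nothing in the labels says whether each library is a separate mouse, so p-values refer to libraries. They rest on the spread between libraries within groups, estimated over all 43 libraries of the series and not only the 11 compared.

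Of 15598 genes tested, 7374 were called, which is 47.3% of all tested genes. The isotype libraries were higher in 3754 genes (24.1%) and lower in 3620 (23.2%). At least 2-fold differences were seen in 1325 of the genes that rose and 1254 of those that fell, and the median log2 fold change over all genes was 0.00. Without regard to the test, all 4 isotype libraries lay above all 7 saline libraries in 20.5% of genes, and below all of them in 20.7%. Simulated data held all groups equal, apart from 66, 67 and 66 of 15477 genes changed 1.5-fold, 2-fold and 4-fold in the isotype libraries. On these edgeR recovered 45.5% of 1.5-fold and 74.6% of 2-fold changes. Far fewer genes changed there than the 47.3% called here, so these rates do not measure the sensitivity of this comparison. Counts of list members below are to be read against the shares over all genes. The lists were chosen with earlier results of these data known, and list members named beyond the fixed rule are examples chosen after their values were seen. In bulk lung RNA, fewer cells of a type and less RNA per cell cannot be told apart.

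**Figure D1:**
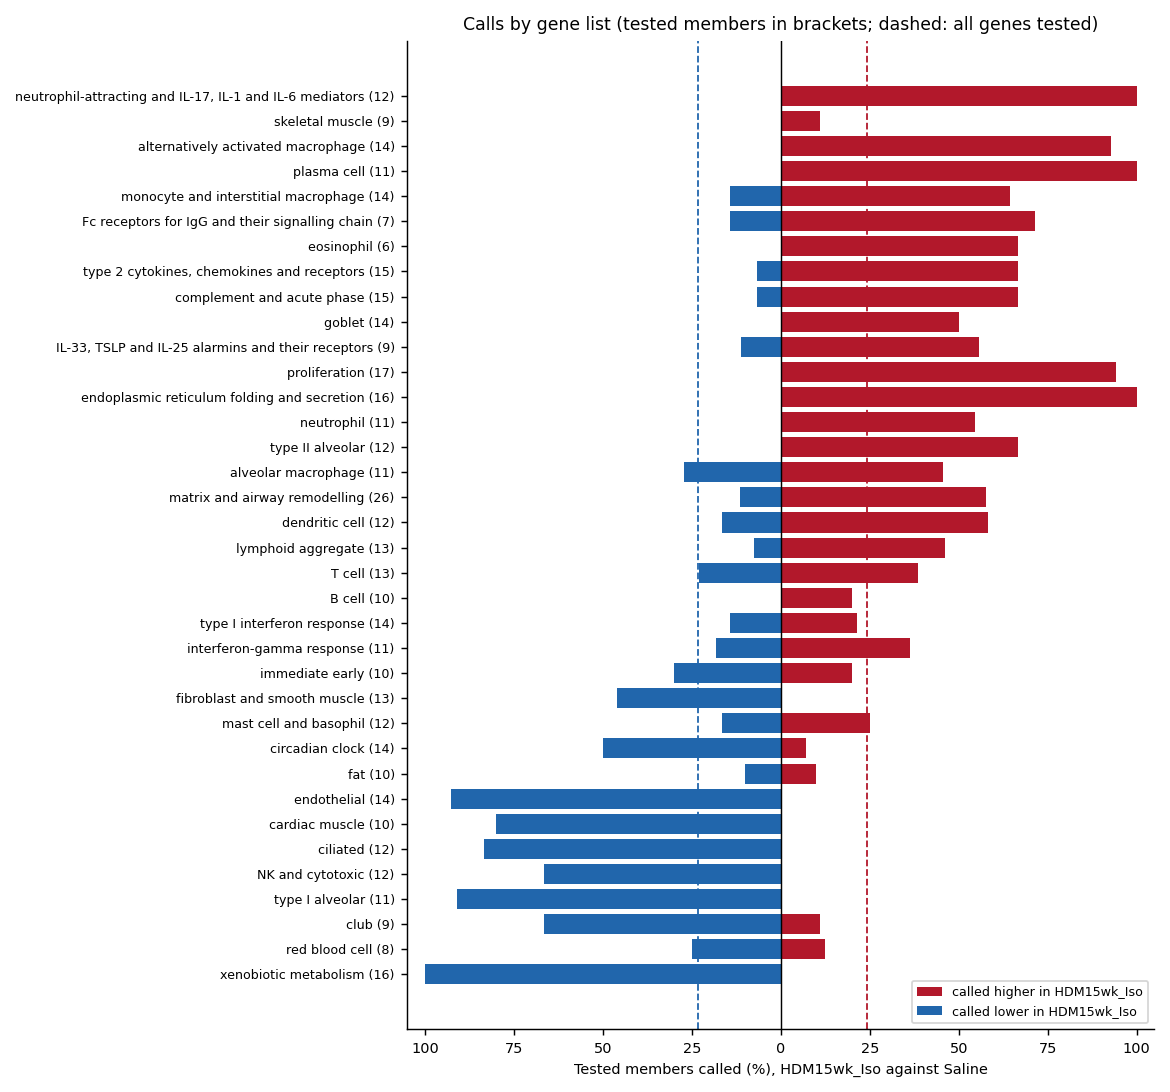
Percent of the tested members of each of 36 gene lists that were called higher (right, red) or lower (left, blue) in HDM15wk_Iso than in Saline, with lists ordered by their median log2 fold change. Dashed lines mark the shares over all genes tested, 24.1% higher and 23.2% lower; every tested neutrophil-attracting, plasma cell and endoplasmic reticulum folding gene was higher, and every tested xenobiotic metabolism gene was lower.

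Type 2 mediators were mostly higher in the isotype libraries, among them the chemokines Ccl11 and Ccl8 and the cytokines Il13 and Il5. Of 15 tested members 10 rose and 1 fell, with a median log2 fold change of 1.18, against 0.00 over all genes. Ccl11 (eotaxin-1, which attracts eosinophils through the receptor CCR3; chr11:82057832-82062955, GRCm38.p6) had 94.1, 51, 88.1 and 23.7 CPM in the 4 isotype libraries, against 1.48 to 7.67 CPM with a median of 2.16 in the saline libraries. Its log2 fold change was 4.11 ± 0.48 (adjusted p = 1.8e-08), and the groups did not overlap. Isotype replicate 4 was the lowest of its group for this gene. Ccl8, a chemokine that in mouse acts on CCR8 of T helper 2 cells, had 57.1, 58.8, 56.8 and 39.2 CPM, against 0.269 to 4.8 CPM with a median of 1.22 in saline libraries, a log2 fold change of 4.74 ± 0.45 (adjusted p = 5e-10). The groups lay far apart, the lowest isotype library being at 39.2 CPM and the highest saline library at 4.8 CPM. Its receptor gene Ccr8 rose as well, with 1.02, 1.71, 1.95 and 2.36 CPM against 0 to 0.647 CPM with a median of 0.267, by 2.33 ± 0.39 (adjusted p = 6.2e-06).

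Among the cytokines themselves the counts were low. Il13, which drives mucus production and airway hyperreactivity, had 2.18, 1.95, 3.16 and 0.982 CPM in isotype libraries, against 0 to 0.4 CPM with a median of 0 in saline libraries, 4 of which had no Il13 count. It rose by 4.08 ± 0.77 (adjusted p = 4.18e-05). Il5, the growth and survival factor of eosinophils, had 1.15, 0.61, 1.95 and 0.393 CPM, against 0 to 0.374 CPM with a median of 0.154 in saline libraries, and rose by 2.59 ± 0.67 (adjusted p = 0.00169). The lowest isotype value of Il5, in replicate 4, was close to the highest saline value, 0.374 CPM. Il4, the cytokine that starts T helper 2 differentiation and the switch to IgE, was not called: it had 0.768, 0.366, 1.09 and 0.196 CPM, against 0.0869 to 0.666 CPM with a median of 0.187, a log2 fold change of 1.18 ± 0.59 (adjusted p = 0.0966). Saline replicate 1, at 0.666 CPM, lay above isotype replicates 2 and 4. Without it Il4 passed the threshold at 1.59 (adjusted p = 0.0358), as it did without isotype replicate 4 at 1.54 (adjusted p = 0.0483). Il13ra2, the decoy receptor of IL-13 that is itself induced by IL-13, had the largest log2 fold change of the list: 5.5, 2.32, 9.12 and 0.688 CPM, against 0 to 0.267 CPM with a median of 0, a log2 fold change of 5.24 ± 0.76 (adjusted p = 8.68e-07). Ccl17 and Ccl22, the ligands of the T helper 2 receptor CCR4, rose by 1.12 ± 0.41 and 1.14 ± 0.26 (adjusted p = 0.0233 and 0.00043). The only member that fell was Ptgdr2, the prostaglandin D2 receptor of type 2 cells, at 0.384 to 0.732 CPM in isotype and 0.561 to 1.6 CPM in saline libraries, with a log2 fold change of -1.26 ± 0.47 (adjusted p = 0.0249); without isotype replicate 1 no member was called lower. Gata3, the lineage factor of type 2 lymphocytes, had a log2 fold change of -0.41 ± 0.23 and was not called (adjusted p = 0.139). With the fit restricted to the 11 libraries of both groups, the number of type 2 members called higher was 4 in place of 10, and within number range 1 it was 6.

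A spacing that STAT6, the transcription factor downstream of IL-4 and IL-13, is known to bind is TTC, then 4 bases of any kind, then GAA. It was looked for on both strands of the RefSeq promoters (250 bases before to 50 after the start, GRCm38.p6). It occurred in promoters of 3 of 15 type 2 genes with a promoter in the table (Ccl17, Il4 and Il9) of 2 of 13 neutrophil-attracting genes (Il1f9 and Lcn2), and of 8.01% of all 27025 genes. The promoter of Ccl17 (chr8:94810203-94810502, plus strand) is given because Ccl17 is the only type 2 gene with this match that rose. Il4 was not called and Il9 had too few counts to be tested. The neutrophil-attracting genes with the match, Il1f9 and Lcn2, rose as well, by 1.73 ± 0.44 and 4.62 ± 0.47. Capitals mark the match, and the pattern is the same on both strands.
Ccl17: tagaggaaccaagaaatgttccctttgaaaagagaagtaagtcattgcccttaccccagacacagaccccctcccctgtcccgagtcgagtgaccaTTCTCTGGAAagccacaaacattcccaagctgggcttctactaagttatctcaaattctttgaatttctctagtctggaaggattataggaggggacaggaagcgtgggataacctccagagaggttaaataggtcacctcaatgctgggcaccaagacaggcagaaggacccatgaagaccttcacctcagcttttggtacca

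Il33 itself, the alarmin whose blockade the wider study is about, was higher in every isotype library than in any saline library. Il33 (chr19:29925113-29960718, GRCm38.p6) had 619, 537, 832 and 454 CPM in isotype libraries, against 60.1 to 133 CPM with a median of 70.3 in saline libraries, a log2 fold change of 3.06 ± 0.43 (adjusted p = 4.2e-07). The lowest isotype library was above the highest saline library, replicate 5 at 133 CPM, by more than the whole saline range. The mice carry a humanised Il33 gene, and the labels do not say how its reads were assigned. Il1rl1, which encodes the IL-33 receptor ST2 in its membrane and soluble forms, had 35.3, 31.1, 47 and 17.7 CPM, against 5.86 to 17.7 CPM with a median of 11.6, and rose by 1.52 ± 0.30 (adjusted p = 8.21e-05). Isotype replicate 4 and the highest saline library lay at the same level, so the groups touched. Of the 9 tested members of the alarmin list 5 rose and 1 fell, with a median of 0.99; number range 2 alone gave 2 that rose. Crlf2, the TSLP receptor subunit, had 43.1, 32.2, 45.6 and 48.1 CPM, against 12.8 to 18.1 CPM with a median of 15, and rose by 1.61 ± 0.26 (adjusted p = 4.33e-06), and its partner Il7r rose by 0.99 ± 0.25 (adjusted p = 0.00116). The ligand Tslp was the member that fell: 4.22, 2.44, 2.8 and 1.87 CPM against 3.6 to 6.13 CPM with a median of 4.95, with a log2 fold change of -0.97 ± 0.32 (adjusted p = 0.0111). That call was lost without isotype replicate 4, and no member was then called lower. Areg, the growth factor amphiregulin made by IL-33 responsive cells, rose by 1.52 ± 0.35 (adjusted p = 0.000541). The co-receptor Il1rap had a log2 fold change of -0.19 ± 0.21 and was not called (adjusted p = 0.475).

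All 12 tested neutrophil-attracting and IL-17, IL-1 and IL-6 mediators rose, with a median log2 fold change of 3.05, and in all 12 the isotype libraries lay above every saline library. Lcn2, the iron-sequestering protein lipocalin 2 of neutrophils and stressed epithelium, had 1806, 1668, 1806 and 3210 CPM in isotype libraries, against 52.2 to 152 CPM with a median of 77.4 in saline libraries, a log2 fold change of 4.62 ± 0.47 (adjusted p = 1.47e-09). Replicate 4 stood above the other 3 isotype libraries. Cxcl1, a ligand of the neutrophil receptor CXCR2, had 13.1, 7.32, 14.3 and 25.8 CPM, against 0.269 to 2.71 CPM with a median of 1.73, and rose by 3.65 ± 0.51 (adjusted p = 3.8e-07). Cxcl5, a CXCR2 ligand of alveolar epithelium, had 68.6, 20, 69.3 and 89.3 CPM against 0.404 to 8.04 CPM with a median of 1.29, a rise of 4.94 ± 0.73 (adjusted p = 1.41e-06). The neighbouring chemokine gene Cxcl2 rose by 5.26 ± 0.83 (adjusted p = 3.65e-06). Il6, an inflammatory cytokine of the acute phase response, had 3.46, 1.71, 2.67 and 2.55 CPM, against 0.133 to 0.654 CPM with a median of 0.337, and rose by 3.04 ± 0.56 (adjusted p = 3.27e-05). Il17a, the cytokine of T helper 17 and gamma delta T cells, was counted 21 times over the 4 isotype libraries (0.256, 0.122, 0.365 and 1.47 CPM) and never in the 7 saline libraries. Set against a floor of 3 counts over the whole saline group, it was at least 14.8-fold higher, and isotype replicate 4 held most of its counts (adjusted p = 0.00216). Il1a, Tnf and Csf2, early inflammatory cytokines, rose by 2.44 ± 0.41, 2.29 ± 0.33 and 1.35 ± 0.25. Il1b, at 22.7 to 43.1 CPM against 8.53 to 22.5 CPM, had the smallest rise of the list, 1.16 ± 0.30 (adjusted p = 0.00168).

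Cxcl1 and Cxcl2 lie near each other on chromosome 5, and both promoters hold one form of the NF-kappa-B site, which is GGG, then 2 bases of any kind, then TTTCC, read on both strands. Of 13 mediators of the list with a promoter in the table, 4 hold it (Cxcl1, Cxcl2, Cxcl3 and Il6), as do 2 of 15 type 2 genes (Ccr3 and Il9), against 1.89% of all 27025 genes. The promoters of Cxcl1 (chr5:90890995-90891294) and Cxcl2 (chr5:90903649-90903948), both on the plus strand of GRCm38.p6 and from RefSeq, are shown because these genes rose together. Capitals mark the matches, 2 in each promoter, which do not overlap; the upstream one of Cxcl1 reads on the minus strand.
Cxcl1: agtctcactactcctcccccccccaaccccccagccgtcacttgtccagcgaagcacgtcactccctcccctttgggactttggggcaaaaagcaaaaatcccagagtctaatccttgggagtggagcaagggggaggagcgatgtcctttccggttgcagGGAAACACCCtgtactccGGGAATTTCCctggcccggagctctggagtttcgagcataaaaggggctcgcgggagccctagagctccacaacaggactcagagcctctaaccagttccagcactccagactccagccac
Cxcl2: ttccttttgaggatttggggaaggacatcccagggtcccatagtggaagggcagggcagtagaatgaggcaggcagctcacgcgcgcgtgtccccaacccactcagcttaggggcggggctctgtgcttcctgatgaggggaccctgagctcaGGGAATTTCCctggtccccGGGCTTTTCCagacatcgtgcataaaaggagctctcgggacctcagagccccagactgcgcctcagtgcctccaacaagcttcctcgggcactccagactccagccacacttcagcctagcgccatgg

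Markers of the neutrophils themselves had a smaller median change. Of 11 tested members 6 rose and none fell, with a median of 0.88, and 4 to 7 rose when a single library of either group was left out. S100a8, a calcium-binding protein abundant in neutrophils, had 94, 67.8, 63.2 and 73.6 CPM in isotype libraries, against 22.5 to 45.5 CPM with a median of 35.2, and rose by 0.97 ± 0.34 (adjusted p = 0.0183). Its partner S100a9 had a log2 fold change of 0.56 ± 0.36 and was not called (adjusted p = 0.201), although its groups did not overlap. Il1r2, a decoy IL-1 receptor of neutrophils, rose by 2.71 ± 0.45 (adjusted p = 6.45e-06), with 9.98, 4.51, 12.4 and 6.88 CPM against 0.404 to 1.87 CPM with a median of 1.16. The granule gene Ngp of immature neutrophils had 1.02, 1.71, 0.122 and 0.589 CPM against 0 to 3.77 CPM with a median of 2.86 and was not called (adjusted p = 0.324). The granule genes Mpo, Elane and Camp had too few counts to be tested. In number range 1 alone 1 marker of the list rose, and in number range 2 there were 3.

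Eosinophil markers rose in 4 of 6 tested members, with a median of 1.70. Prg2, the eosinophil major basic protein, had 13.2, 6.58, 11.6 and 4.22 CPM in isotype libraries, against 0.269 to 0.647 CPM with a median of 0.462 in saline libraries, and rose by 4.27 ± 0.40 (adjusted p = 3.19e-10). All saline libraries were under 1 CPM of it. Il5ra, the IL-5 receptor, rose by 0.998 ± 0.32 (adjusted p = 0.0106), and Alox15, a lipid-oxidising enzyme of eosinophils and macrophages, by 2.33 ± 0.61 (adjusted p = 0.0019). Ear6, an eosinophil-associated ribonuclease of a family with near-identical copies, had 4.61, 0.366, 3.89 and 10.4 CPM against 0 to 0.269 CPM with a median of 0, a log2 fold change of 6.14 ± 1.05 (adjusted p = 1.12e-05), isotype replicate 2 being far below the other 3. Siglecf, a surface lectin of both eosinophils and alveolar macrophages, had 8.78 to 18.6 CPM against 3.55 to 20.5 CPM and was not called (adjusted p = 0.816). The defining peroxidase gene Epx had 3 counts in the isotype and 0 in the saline libraries and was not tested. A single eosinophil marker was called in number range 1 alone, and 2 in number range 2.

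**Figure D2:**
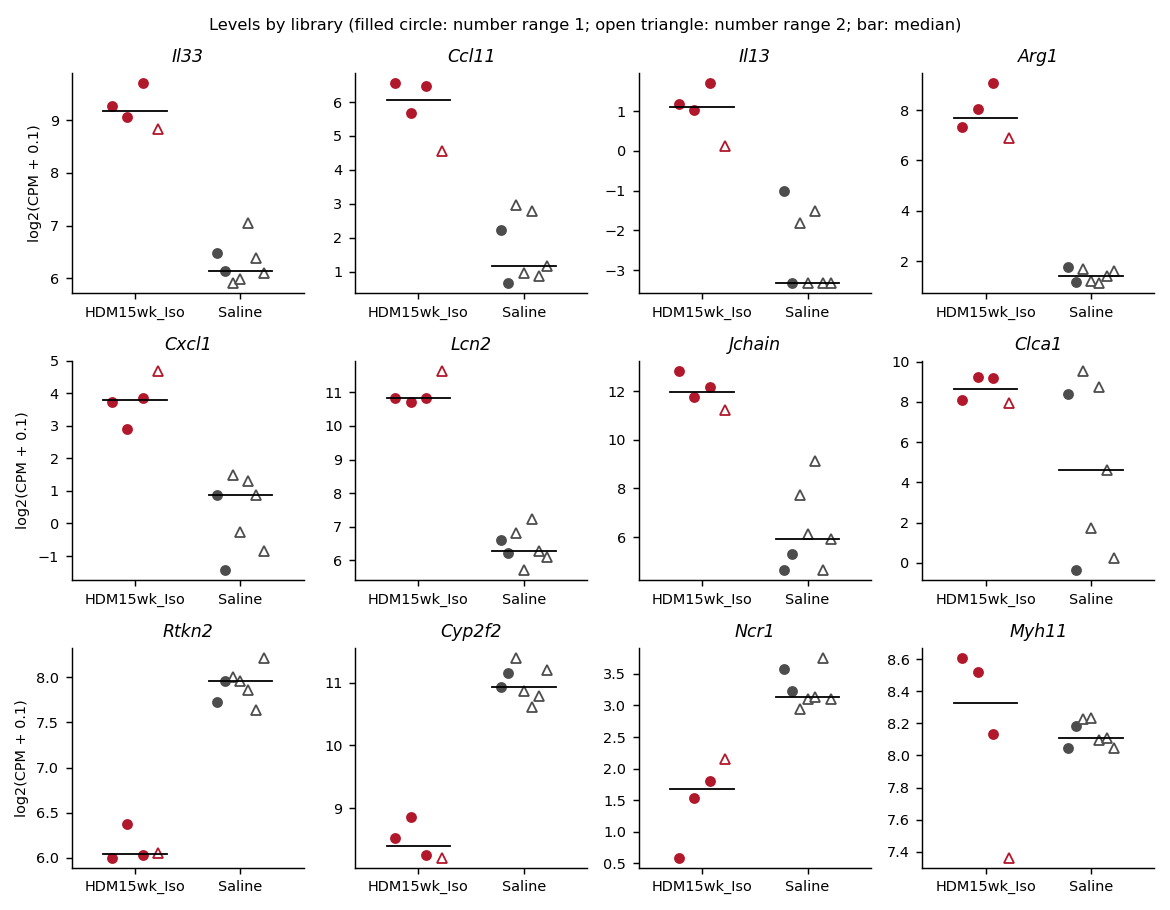
Levels of 12 genes as log2(CPM + 0.1) in each HDM15wk_Iso library (left) and each Saline library (right); circles are number range 1, triangles number range 2 and bars the group median. The groups do not overlap for Il33, Ccl11, Il13, Arg1, Cxcl1, Lcn2 and Jchain (isotype higher) or for Rtkn2, Cyp2f2 and Ncr1 (isotype lower), whereas Clca1 and Myh11 overlap.

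The alternatively activated macrophage list rose in 13 of 14 members, with a median log2 fold change of 2.35. In 9 of the 14 every isotype library lay above every saline library. With the fit restricted to the libraries of both groups 9 were called higher, and within number range 1 there were 8. Arg1, the arginine-degrading enzyme that marks this state in mouse (chr10:24915207-24927470, GRCm38.p6), had 162, 260.5, 535 and 117 CPM in isotype libraries, against 2.1 to 3.33 CPM with a median of 2.61 in saline libraries. Its log2 fold change of 6.80 ± 0.83 (adjusted p = 5.72e-08) was the largest of the list, and isotype replicate 3 held about as much as the other 3 together. Chil3 (Ym1), a chitinase-like protein of macrophages, had 8459, 10560, 20950 and 15850 CPM, against 251 to 1977 CPM with a median of 377, and rose by 4.30 ± 0.56 (adjusted p = 1.19e-07). Egr2, a transcription factor of this state, had 30.1, 27.6, 36.7 and 30.9 CPM, against 4.17 to 9.34 CPM with a median of 6.28, and rose by 2.35 ± 0.30 (adjusted p = 6.77e-08). Retnla (FIZZ1), a secreted protein induced by IL-4 and IL-13, rose by 2.55 ± 0.79 (adjusted p = 0.00816) but overlapped: isotype libraries had 3391, 1598, 4376 and 685 CPM, and saline replicates 1, 3 and 5 had 774, 1633 and 692 CPM where the other 4 had 33 to 138. Mmp12, the macrophage elastase, had 386, 664, 1149 and 196 CPM against 4.69 to 29.3 CPM with a median of 9.17, a rise of 5.74 ± 0.77 (adjusted p = 2.63e-07).

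Isotype replicate 3 was the highest of its group in 11 of the 14 macrophage genes and in 8 of the 15 type 2 genes, against 20% of all genes tested. Replicate 4 was the lowest in 9 of the 15 type 2 genes, against 26.9% of all genes. Among the 12 neutrophil-attracting genes replicate 4 was the highest in 5, against 27.3% of all genes, and the lowest in 3. Replicate 3 was likewise the highest in 5 of these 12, against 20% of all genes. Replicate 4 is also the only isotype library in number range 2, so that library and that range cannot be told apart within the group. The range term of the fit over all groups had a median of -0.06 for the type 2 list and 0.35 for the neutrophil-attracting list. This order was looked at after the values were seen and was given no test.

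**Figure D3:**
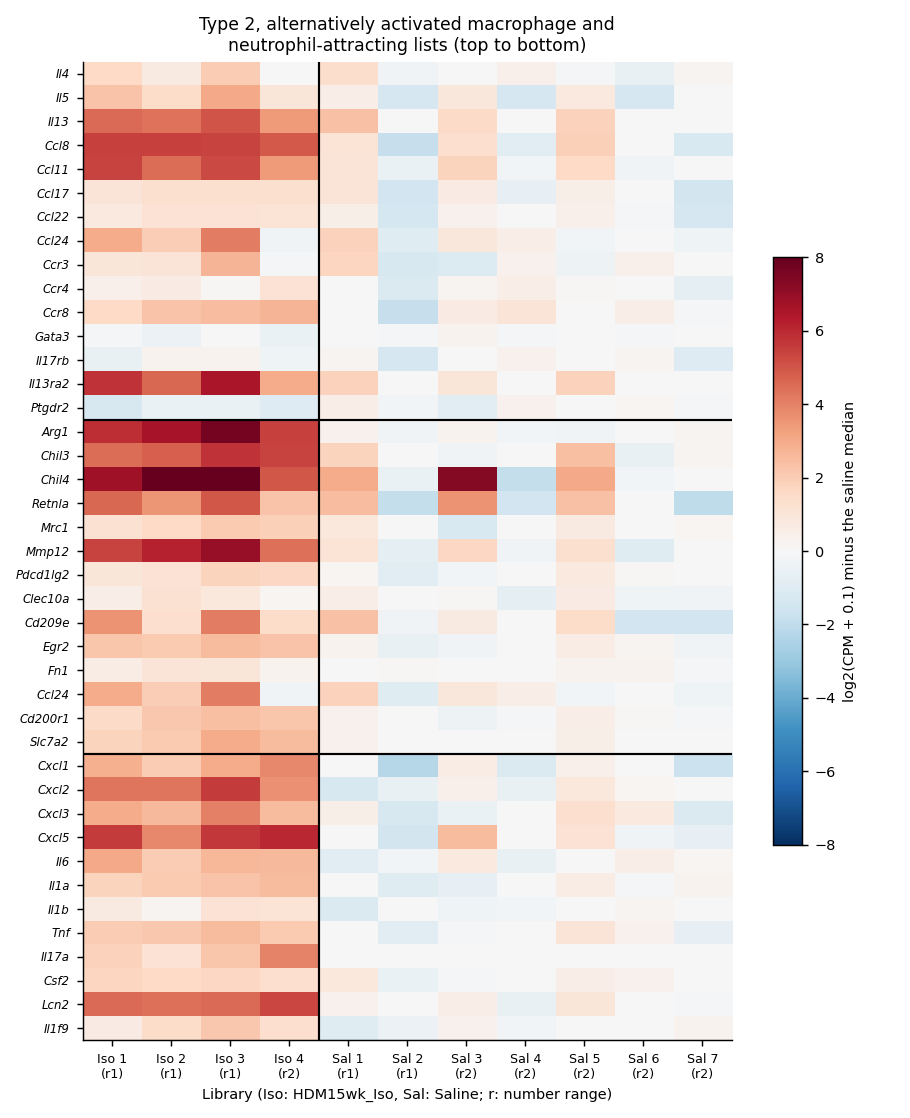
Levels of the tested members of 3 lists in each library, as log2(CPM + 0.1) minus the median of the saline libraries, with HDM15wk_Iso libraries left of the line and Saline libraries right of it; r1 and r2 are the number ranges, and differences past 8 take the darkest colour. The neutrophil-attracting genes are above the saline median in all 4 isotype libraries, Arg1 and Mmp12 are highest in isotype replicate 3, and saline replicates 1, 3 and 5 are above the saline median for Chil4 and Retnla.

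Macrophage markers split by kind. Of 14 monocyte and interstitial macrophage markers 9 rose and 2 fell (median 2.10), and 9 rose under every alternative run. Ms4a7, a membrane protein of interstitial macrophages, had 35.5, 28.3, 36.2 and 25.8 CPM in isotype libraries, against 1.22 to 4.55 CPM with a median of 2.4, and rose by 3.56 ± 0.22 (adjusted p = 2.86e-15). Trem2 and Gpnmb, genes of lipid-handling macrophages, rose by 4.73 ± 0.49 and 5.11 ± 0.58; Gpnmb reached 816, 1216, 1145 and 550.4 CPM, against 22.4 to 43.9 CPM with a median of 24.8. The complement genes C1qa, C1qb and C1qc rose by 2.12, 2.35 and 2.09. The members that fell were Lyve1, which is also a lymphatic endothelial gene, with -1.64 ± 0.32 (adjusted p = 7.34e-05), and Ccr2, the receptor of inflammatory monocytes, with -0.63 ± 0.25 (adjusted p = 0.0343). Only 1 member was called lower without isotype replicates 1, 2 or 3 or saline replicates 1, 4 or 6.

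Alveolar macrophage genes went both ways, 5 of 11 rising and 3 falling. Pparg, the lineage factor of alveolar macrophages, had 27, 23.1, 30.9 and 35.5 CPM, against 7.95 to 14.9 CPM with a median of 11.9, and rose by 1.30 ± 0.24 (adjusted p = 4.19e-05). Ear1, a ribonuclease of resident alveolar macrophages, had 3.2, 3.05, 4.74 and 3.14 CPM, against 4.96 to 24.1 CPM with a median of 19.8, with a log2 fold change of -2.37 ± 0.46 (adjusted p = 6.81e-05). Fabp1, a fatty acid binding protein of the same cells, had 0.256, 0.732, 0.122 and 1.38 CPM against 1.96 to 8.13 CPM with a median of 5.12, a log2 fold change of -3.04 ± 0.55 (adjusted p = 2.07e-05). Its relative Fabp4, fixed here in a list of fat genes and also a macrophage gene, had 78.6, 74.5, 140 and 96.8 CPM against 9.56 to 26.8 CPM with a median of 17.5 and rose by 2.28 ± 0.50 (adjusted p = 0.000284). The other tested fat genes held 1 called member, Cidec, lower in isotype libraries (2.56 to 4.27 against 4.11 to 14.7 CPM, adjusted p = 0.0391), a call lost without any 1 isotype library and without saline replicates 2 or 4. Number range 1 alone gave 1 alveolar macrophage gene called higher.

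The isotype antibody is an immunoglobulin, so receptors for IgG were listed. Of 7 tested members 5 rose and 1 fell. Fcgr2b, the inhibitory IgG receptor, had 112, 106, 146 and 128 CPM in isotype libraries, against 19.2 to 40.1 CPM with a median of 22.4, and rose by 2.30 ± 0.22 (adjusted p = 3.69e-10). The activating receptors Fcgr3 and Fcgr4 and the shared signalling chain Fcer1g rose by 2.42 ± 0.25, 1.71 ± 0.31 and 1.94 ± 0.29. HDM15wk mice received no antibody, and their log2 fold changes against the same saline libraries were 2.27 for Fcgr2b, 2.41 for Fcgr3 and 1.58 for Fcgr4. The direct difference of Fcgr2b, HDM15wk_Iso minus HDM15wk, was 0.03 ± 0.21. Fcgr1 rose by 0.67 ± 0.25, had 0.37 in HDM15wk against saline, and had a direct difference of 0.30 ± 0.24. Of the 7 members 6 had higher values in HDM15wk_Iso than in HDM15wk, against 44.6% of all genes. The median difference was 0.07, with no call. Whether the antibody had a part was not tested. Trim21, the cytosolic IgG receptor, was the member that fell, with -0.43 ± 0.15 (adjusted p = 0.0216), and was not called without isotype replicates 1 or 2. Fcgrt, the neonatal receptor that recycles IgG, had 54.1 to 65.5 CPM against 52.5 to 80.4 CPM and was not called.

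Of 12 dendritic cell markers 7 were called higher and 2 lower. Itgax (CD11c), shared with alveolar macrophages, had 377, 360.5, 574 and 502 CPM, against 46 to 109 CPM with a median of 69.4, and rose by 2.63 ± 0.31 (adjusted p = 1.83e-08). Flt3, the growth factor receptor of dendritic cells, rose by 0.64 ± 0.17 (adjusted p = 0.00161), whereas the lineage factor Zbtb46, which endothelium also expresses, fell with -0.58 ± 0.20 (adjusted p = 0.0147) and the migration receptor Ccr7 with -0.49 ± 0.16 (adjusted p = 0.0115). Without isotype replicate 1 only 1 member was lower.

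Mast cell and basophil markers went both ways: 3 of 12 rose and 2 fell, near the shares over all genes, with a median of -0.58. The mucosal mast cell proteases Mcpt1 and Mcpt2 were among those that rose. Mcpt1 had 2.43, 8.78, 3.4 and 0.884 CPM in isotype libraries, against 0 to 0.133 CPM with a median of 0.0842 in saline libraries, a log2 fold change of 5.50 ± 1.04 (adjusted p = 4.64e-05), and Mcpt2 rose by 5.92 ± 1.13. The connective tissue mast cell proteases Mcpt4 and Cma1 had log2 fold changes of -0.80 ± 0.87 and -0.83 ± 0.59 and were not called. Gata2, a factor of mast cells that is also expressed in endothelium, had 38.3, 38.7, 19.7 and 36 CPM, against 86.6 to 119 CPM with a median of 102, with a log2 fold change of -1.57 ± 0.27 (adjusted p = 1.01e-05), and the stem cell factor receptor Kit, likewise shared with lung endothelium, had -0.77 ± 0.21 (adjusted p = 0.00253). No member was called higher in number range 2 alone.

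Lymphocyte lists diverged. All 11 plasma cell genes rose, with a median of 2.33, and 2 of 10 B cell genes did, with a median of 0.07. Jchain, the joining chain of IgA and IgM, had 7378, 3476, 4620 and 2379 CPM in isotype libraries, against 24.8 to 562 CPM with a median of 60.1 in saline libraries, and rose by 5.04 ± 0.62 (adjusted p = 5.26e-08). Saline replicate 5, at 562 CPM, and replicate 3, at 212 CPM, were the highest of their group. Mzb1, an endoplasmic reticulum protein of antibody-secreting cells, had 214, 122, 106 and 106 CPM, against 4.13 to 16.1 CPM with a median of 5.47, and rose by 4.13 ± 0.42 (adjusted p = 1.21e-09). Derl3, a factor of protein disposal in the same cells, had 52.4, 38.5, 34.4 and 47.3 CPM, against 1.33 to 6.82 CPM with a median of 1.74, and rose by 4.12 ± 0.41 (adjusted p = 6.31e-10). Tnfrsf17 (BCMA), a survival receptor of plasma cells, rose by 4.21 ± 0.44 (adjusted p = 2e-09). The B cell gene Ms4a1 (CD20) had a log2 fold change of -0.13 ± 0.38 and was not called (adjusted p = 0.805). Cd22, an inhibitory B cell receptor, had 60.8, 64.3, 68.2 and 103 CPM, against 34.8 to 65.7 CPM with a median of 47.6, and rose by 0.66 ± 0.20 (adjusted p = 0.0069); without isotype replicate 4 its log2 fold change was 0.50 and neither it (adjusted p = 0.0792) nor any other B cell gene was called. The B cell count was 1 without isotype replicate 1 or saline replicates 1, 2, 4 or 7.

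Endoplasmic reticulum folding and secretion genes, which serve secretory cells of every kind, rose in 16 of 16 members with a median of 0.92. They rose in 16 of 16 with each single library left out, and in 12 within number range 1 alone. Sdf2l1, a chaperone cofactor, had 85.5, 52.3, 69.5 and 58.7 CPM, against 11.4 to 20.7 CPM with a median of 13.3, and rose by 2.12 ± 0.25 (adjusted p = 1.83e-08). Hspa5 (BiP), the main chaperone of the compartment, rose by 0.996 ± 0.17 (adjusted p = 8.11e-06).

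Lymphoid aggregate genes, which mark organised lymphoid tissue, rose in 6 of 13 and fell in 1, the Ccr7 named above. With any 1 library of either group left out 5 rose, each number range alone gave 3, and without isotype replicate 1 none fell. Ccl19, a chemokine of T cell zones, had 8.7, 8.29, 7.78 and 13.6 CPM, against 2.02 to 4.02 CPM with a median of 2.77, and rose by 1.84 ± 0.34 (adjusted p = 3.51e-05). Cxcl13, the B cell follicle chemokine, had 26.9, 23.8, 25.3 and 28 CPM against 3.64 to 14.9 CPM with a median of 5.65 and rose by 1.97 ± 0.57 (adjusted p = 0.00504). The pan T cell genes Cd3d and Cd3e were at 7.44 to 9.97 and 10.1 to 20.6 CPM in isotype libraries and 6.06 to 10.6 and 7 to 15.9 CPM in saline libraries and were not called. Within the T cell list 5 of 13 rose and 3 fell. Foxp3, the factor of regulatory T cells, had 2.56, 3.66, 5.11 and 6.78 CPM, against 0.673 to 2.22 CPM with a median of 1.46, and rose by 1.61 ± 0.25 (adjusted p = 2.14e-06), along with Ctla4 by 1.49 ± 0.32, Icos by 0.81 ± 0.18 and Cd4 by 0.80 ± 0.22. Cd8a, Cd8b1 and the naive T cell factor Tcf7 were lower, with -1.09 ± 0.37, -1.06 ± 0.35 and -0.78 ± 0.21; without isotype replicate 1 only 1 member was called lower.

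NK and cytotoxic genes fell in 8 of 12 members, with a median of -1.13, and no member rose. Ncr1 (NKp46), a receptor that marks NK cells, had 1.41, 2.81, 3.4 and 4.32 CPM in isotype libraries, against 7.57 to 13.4 CPM with a median of 8.67 in saline libraries, a log2 fold change of -1.77 ± 0.36 (adjusted p = 0.000112). Klrb1c (NK1.1) had 3.71, 3.54, 4.38 and 3.04 CPM against 8.32 to 11.9 CPM with a median of 9.87, with -1.57 ± 0.28 (adjusted p = 2.09e-05). The granule protease Gzma had 10.5, 13.7, 20.1 and 13.9 CPM against 24.8 to 40.6 CPM with a median of 28.3, with -1.31 ± 0.32 (adjusted p = 0.000788). In these genes every isotype library was below every saline library. Each number range alone gave 2 members called lower.

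The NK genes also stood apart between the 2 groups with 15 weeks of HDM. HDM15wk libraries had 0.112 to 1.52 CPM of Ncr1 and 3.72 to 6.55 CPM of Gzma, so that every isotype library was above every HDM15wk library in Gzma. All 12 NK members were higher in HDM15wk_Iso than in HDM15wk, where 44.6% of all genes were, with a median log2 difference of 0.91. The difference was 1.51 ± 0.31 for Gzma (adjusted p = 0.0531) and 1.70 ± 0.39 for Ncr1 (adjusted p = 0.137), and neither passed the threshold. Gzma was called with upper-quartile factors, with no filter on low counts, without HDM15wk replicate 1 and HDM4wk replicate 3, which an earlier analysis of these data set apart, and in DESeq2. It was not called in limma-voom, with DESeq2 size factors in edgeR, or with the correction for GC content and gene length. Nor was it called with only the 2 chronic groups, in number range 1 alone, or with no number range term. Its own range term was -0.53 (adjusted p = 0.0355).

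In HDM15wk_Iso against HDM15wk as a whole 0 of 15598 genes were called by edgeR (0%), 933 had an unadjusted p under 0.05, and the smallest adjusted p was 0.0513. DESeq2 called 8 genes (Ncr1, Gzma and Gzmb higher among them) and limma-voom 0. Upper-quartile factors called 5 genes, which were Gzma, Zfp457, LOC668415 and Olfr856-ps1 as higher and Ccn1 as lower, all named after their values were seen. Matrix genes had lower values in HDM15wk_Iso than in HDM15wk in 24 of 26, with a median difference of -0.34 and no call. Within number range 2, which holds 1 isotype library, most of them were lower but some were higher. Against saline of that range, Eln had 0.97 in HDM15wk_Iso and 0.61 in HDM15wk, and Spp1 had 3.53 and 5. Higher values in HDM15wk_Iso were seen in 9 of 11 interferon-gamma response, 13 of 14 type I interferon, 11 of 13 fibroblast and smooth muscle, 9 of 10 fat, 8 of 9 skeletal muscle and 0 of 10 immediate early genes, all with no call, against 44.6% of all genes.

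**Figure D4:**
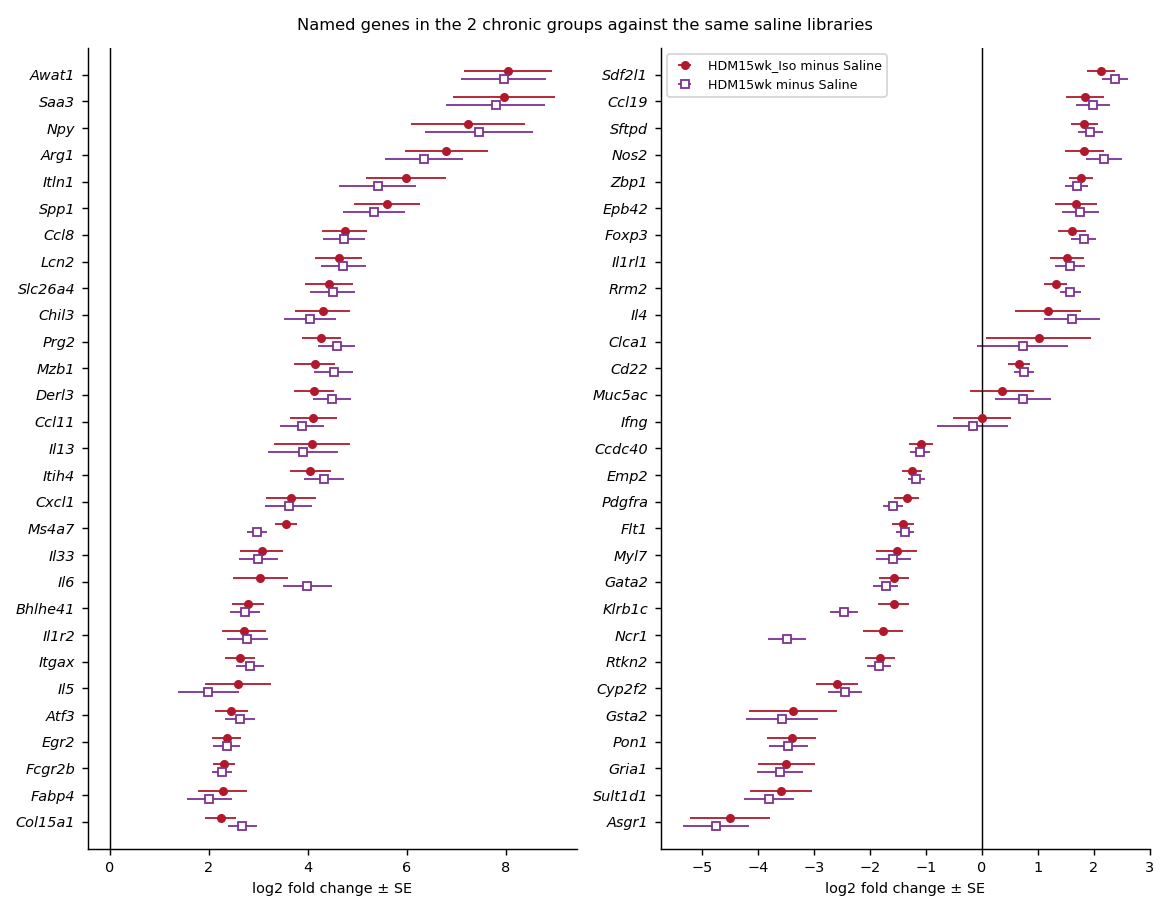
log2 fold changes ± SE of named genes in HDM15wk_Iso (red circles) and HDM15wk (open squares), each against the same 7 saline libraries, so the values share their controls; genes at 0 in every saline library and the muscle gene Myh2 are left out. Ncr1 and Klrb1c are lower in HDM15wk, where they are -3.47 and -2.47, than in HDM15wk_Iso, where they are -1.77 and -1.57.

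Interferon genes were mixed. Ifng, the cytokine of NK and T helper 1 cells, had 0, 0.122, 0.608 and 0.491 CPM in isotype libraries, against 0.135 to 0.539 CPM with a median of 0.261, and was not called (0.01 ± 0.51, adjusted p = 0.993). Of 11 tested interferon-gamma response genes 4 rose and 2 fell; without isotype replicate 4 only 1 rose, and the number lower was 5 without saline replicate 2 and 1 without isotype replicates 1 or 2 or saline replicate 3. Nos2, the inducible nitric oxide synthase, had 19.1, 17.7, 25.4 and 20.4 CPM, against 5.2 to 8.17 CPM with a median of 6.46, and rose by 1.83 ± 0.35 (adjusted p = 5.12e-05). Cxcl9, a T cell chemokine, rose by 2.68 ± 0.70, while the GTPase Gbp2 had a log2 fold change of -0.92 ± 0.28. In the type I interferon list 3 of 14 rose and 2 fell, near the shares over all genes. Zbp1, a nucleic acid sensor, had 37.4, 29.9, 30.5 and 37.9 CPM against 4.31 to 13.3 CPM with a median of 8.86 and rose by 1.77 ± 0.22 (adjusted p = 4.65e-08), and Ifit2 had a log2 fold change of -1.39 ± 0.30 (adjusted p = 0.000239).

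Among airway epithelial genes, most club and ciliated markers fell and 7 of 14 goblet markers rose, with a median of 1.12 for the goblet list. In only 2 goblet genes did every isotype library lie above every saline library, against 20.5% of all genes, and 4 were called in number range 2 alone. Slc26a4 (pendrin), an anion exchanger induced by IL-13 and IL-17, had 665, 355, 571 and 326 CPM in isotype libraries, against 8.75 to 63.9 CPM with a median of 18.9 in saline libraries, and rose by 4.43 ± 0.48 (adjusted p = 5.75e-09). Itln1, a lectin secreted with mucus, had 13.8, 11.5, 16 and 14.6 CPM, against 0 to 0.841 CPM with a median of 0, and rose by 5.99 ± 0.81 (adjusted p = 2.87e-07). The best known goblet genes were not called. Clca1, a secreted protein of goblet cells, had 272, 605, 582 and 247 CPM in isotype libraries, but saline replicates 1, 3 and 5 had 332, 754 and 425 CPM and the other 4 had 0.673 to 24.1. Its log2 fold change was 1.01 ± 0.94 (adjusted p = 0.387); limma-voom called it at 4.13. The mucin Muc5ac had 6.02, 13.2, 10.1 and 17.6 CPM against 1.7 to 30.4 CPM with a median of 5.82, with 0.36 ± 0.58 (adjusted p = 0.628), and Muc5b had 0.09 ± 0.44. Summed over the goblet list, isotype libraries spanned 1063 to 1621 CPM and saline libraries 111 to 1341 CPM.

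Among 9 club cell markers 6 fell and 1 rose. Scgb1a1, the main secretory protein of club cells, had 7032, 5245, 6108 and 4644 CPM, against 13370 to 24010 CPM with a median of 15870, with a log2 fold change of -1.44 ± 0.30 (adjusted p = 0.000145). Cyp2f2, the club cell cytochrome P450, had 369, 465, 304 and 296 CPM, against 1575 to 2706 CPM with a median of 1959, with -2.58 ± 0.38 (adjusted p = 8.92e-07). The member that rose was Scgb3a1, a secretoglobin of mucous airway cells, by 1.37 ± 0.43 (adjusted p = 0.00938), which was not called without isotype replicate 4. Ciliated cell genes fell in 10 of 12, with a median of -1.10, and 6 were called lower in number range 1 alone. Ccdc40, needed for axoneme assembly, had 18.1, 19.1, 16 and 17.2 CPM against 30.8 to 57.2 CPM with a median of 37.4, with -1.08 ± 0.21 (adjusted p = 7.71e-05). Foxj1, the master factor of ciliated cells, had -0.76 ± 0.28 (adjusted p = 0.0217).

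The alveolar epithelium split between its cell types. Type I markers, of the thin gas exchange cells, fell in 10 of 11 (median -1.25), with 7 called lower in number range 1 alone. Type II markers, of the surfactant-making cells, rose in 8 of 12 (median 0.77). Rtkn2, a type I gene, had 64, 82.9, 65.3 and 66.2 CPM in isotype libraries, against 199 to 297 CPM with a median of 248 in saline libraries, with a log2 fold change of -1.82 ± 0.26 (adjusted p = 7.41e-07). Emp2, a membrane protein of the same cells, had 536, 587, 429 and 502 CPM against 1082 to 1315 CPM with a median of 1181, with -1.25 ± 0.18 (adjusted p = 7.14e-07). Pdpn, a type I gene that lymphatic vessels and activated fibroblasts share, had 118 to 134 CPM against 91.6 to 130.3 CPM and was not called. Sftpd, the surfactant protein D lectin, had 2893, 1956, 2281 and 2431 CPM, against 484 to 796 CPM with a median of 660.1, and rose by 1.83 ± 0.24 (adjusted p = 1.99e-07). Fasn, the fatty acid synthase that supplies surfactant lipid, rose by 1.69 ± 0.32 (adjusted p = 3.92e-05). Abca3 and Etv5, the lipid transporter and a lineage factor of type II cells, had log2 fold changes of 0.11 ± 0.18 and 0.08 ± 0.19 and were not called. In number range 1 alone 2 type II genes rose, and in number range 2 there were 9.

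Endothelial genes fell in 13 of 14, with a median of -1.06, and in 13 with each single library left out. Number range 1 alone gave 7 called lower. Flt1 (VEGF receptor 1) had 55.8, 85, 74.9 and 104.7 CPM in isotype libraries, against 179.8 to 250.4 CPM with a median of 228 in saline libraries, with a log2 fold change of -1.41 ± 0.20 (adjusted p = 4.3e-07). Ednrb, the endothelin receptor of a lung capillary type, had the largest change, 35.3, 51.1, 19.3 and 29.6 CPM against 116 to 199.5 CPM with a median of 161 and -2.30 ± 0.42 (adjusted p = 2.71e-05). Vegfa, the ligand made by type I cells and counted in that list, had -1.22 ± 0.20 (adjusted p = 7.33e-06). Aplnr was the endothelial gene that was not called.

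Among 13 fibroblast and smooth muscle genes 6 fell and none rose. Pdgfra, a receptor of alveolar fibroblasts, had 134, 216, 155 and 195 CPM, against 401 to 505 CPM with a median of 449, with -1.34 ± 0.22 (adjusted p = 7.31e-06). The other members that fell, Inmt, Tcf21, Npnt, Gucy1a1 and Lgr6, had log2 fold changes of -1.84, -1.68, -1.49, -1.12 and -1.12. None of the contractile genes Acta2, Myh11, Tagln, Cnn1, Des and Actg2 was called, with log2 fold changes of -0.38 to 0.26. Isotype libraries ranged widely in them: Myh11 had 390.5, 367, 280.3 and 164 CPM, against 264 to 300.5 CPM with a median of 276 in saline libraries, and replicate 4 was below every saline library.

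The list of matrix and airway remodelling genes had 15 of 26 members higher and 3 lower, with a median of 0.73. Spp1 (osteopontin), a matrix protein of scar-associated macrophages, had 3351, 2948, 4632 and 1188 CPM in isotype libraries, against 38.4 to 123 CPM with a median of 103 in saline libraries, and rose by 5.61 ± 0.67 (adjusted p = 2.63e-08). Col15a1, a basement membrane collagen, had 74.9, 50.1, 110.5 and 74.2 CPM, against 12.7 to 22 CPM with a median of 17.9, and rose by 2.24 ± 0.32 (adjusted p = 5.72e-07). The fibrillar collagen Col3a1 rose by 1.24 ± 0.23 (adjusted p = 4.25e-05), and Timp1, the inhibitor of matrix proteases, by 3.83 ± 0.62 (adjusted p = 5.69e-06). Tnc (tenascin C) and elastin (Eln) rose by 1.94 ± 0.30 and 1.07 ± 0.35. Col1a1, the main fibrillar collagen, missed the threshold at 0.74 ± 0.33 (adjusted p = 0.0581) although its groups did not overlap, with 287, 416, 379 and 303 CPM against 170.3 to 232 CPM with a median of 201. Its log2 fold change in HDM15wk against saline was 1.602, and no matrix gene was called between the 2 chronic groups. Within number range 1 Col1a1 had 1.82 ± 0.48 in HDM15wk and 0.74 in HDM15wk_Iso. Within number range 2 it had 0.60 ± 0.31 and 0.61. Col12a1, Postn and Col6a3 fell, with -1.81 ± 0.31, -0.55 ± 0.21 and -0.50 ± 0.20, but only 1 of the 3 was called without isotype replicates 1, 3 or 4 or saline replicates 1 or 2. Each number range alone gave 9 members that rose.

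Of 15 complement and acute phase genes 10 rose, with a median of 1.18. Saa3, an acute phase protein of macrophages and epithelium, had 413, 353, 515 and 299 CPM in isotype libraries, against 0.521 to 4.49 CPM with a median of 1 in saline libraries. Its rise of 7.96 ± 1.03 (adjusted p = 1.55e-07) was among the 5 largest by the fixed rule for named genes, which passed over some kinds of gene. Itih4, a protein of the hyaluronan-binding inter-alpha-trypsin family, had 1009, 986, 1120 and 1419 CPM against 52.7 to 136 CPM with a median of 65.2 and rose by 4.05 ± 0.41 (adjusted p = 1.47e-09). C3, the central complement protein, rose by 1.61 ± 0.20 (adjusted p = 3.06e-08). C2 was the member that fell, with -0.44 ± 0.18, and was not called without isotype replicates 1, 3 or 4 or saline replicates 1, 2, 5, 6 or 7.

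Genes of cell division rose in 16 of 17, with a median of 0.92. Rrm2, a ribonucleotide reductase subunit needed for DNA synthesis, had 11.4, 13.1, 14.1 and 16.5 CPM, against 3.51 to 8.4 CPM with a median of 4.86, and rose by 1.32 ± 0.21 (adjusted p = 3.89e-06). Mki67, the common marker of dividing cells, rose by 1.12 ± 0.29 (adjusted p = 0.00152), with saline replicates 1 and 5, at 41.7 and 40.7 CPM, above the lowest isotype library, 40.3 CPM. Only 5 members were called in number range 1 alone.

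All 16 xenobiotic metabolism genes fell, with a median of -1.90, and in 15 of them every isotype library was below every saline library. Sult1d1, a sulfotransferase, had 0.768, 3.41, 0.608 and 0.884 CPM in isotype libraries, against 12.7 to 26 CPM with a median of 17.9 in saline libraries, with a log2 fold change of -3.59 ± 0.55 (adjusted p = 2.01e-06). Cyp4b1 and Fmo2, lung oxidases of foreign compounds, had -2.47 ± 0.36 and -2.28 ± 0.41, and the aldehyde dehydrogenase Aldh1a1 had -1.66 ± 0.29. Gstm1 was the member whose groups overlapped, through isotype replicate 4 at 339.8 CPM. Among clock genes 7 of 14 fell and Bhlhe41, a repressor in that circuit that macrophages also use, rose: 109, 103, 139 and 144 CPM against 12.9 to 23.1 CPM with a median of 18.1, by 2.79 ± 0.32 (adjusted p = 1.33e-08). The times at which lungs were taken are not given in the labels. Immediate early genes, which respond to tissue handling as well as to signals, were mixed, 2 of 10 higher and 3 lower; Atf3, a stress factor, had 37.1, 33.9, 53.9 and 32.1 CPM against 4.86 to 10 CPM with a median of 8.17 and rose by 2.45 ± 0.33 (adjusted p = 2.27e-07).

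The 5 largest rises and 5 largest falls by the fixed rule held several genes outside these lists. Awat1, a wax ester synthase, had 50.9, 39.1, 60.3 and 80.3 CPM in isotype libraries, against 0 to 1.09 CPM with a median of 0 in saline libraries, 4 of which had none, and rose by 8.05 ± 0.89 (adjusted p = 7.38e-09). Npy, neuropeptide Y, had 27, 20.9, 20.8 and 9.04 CPM, against 0 to 0.841 CPM with a median of 0, and rose by 7.23 ± 1.15 (adjusted p = 4.01e-06). Erv3, an endogenous retroviral sequence, had 1.41, 2.56, 3.28 and 1.67 CPM and Clca3b, of the same family as Clca1, had 0.64, 3.17, 1.34 and 3.54 CPM, and neither had a count in any saline library. Against a floor of 3 counts over the saline group they were at least 53.6-fold and 55-fold higher. Erv3 was not called within either range alone and Clca3b not within number range 1.

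Among the falls, Asgr1, a galactose-binding receptor, had 0.128, 0.366, 0.243 and 0.0982 CPM, against 2.19 to 6.08 CPM with a median of 4.7, with -4.50 ± 0.72 (adjusted p = 3.61e-06). Gria1, a glutamate receptor subunit, had 1.28, 3.29, 0.729 and 3.04 CPM against a narrow saline range of 24.6 to 26.3 CPM with a median of 25.2, with -3.49 ± 0.52 (adjusted p = 1.08e-06). Pon1, a lipid lactonase, had 5.12, 5.12, 2.55 and 4.22 CPM against 23.1 to 52.5 CPM with a median of 49.6, with -3.40 ± 0.44 (adjusted p = 1.25e-07), and the glutathione transferase Gsta2 had 0.896, 0.488, 0 and 0 CPM against 1.09 to 3.24 CPM with a median of 3.18, with -3.38 ± 0.78 (adjusted p = 0.000543). Gsta2 was at 0 in 2 isotype libraries, and close relatives may share its reads.

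Markers of muscle and blood, which can come with lung tissue, also moved, and their part in the other results was not tested. Cardiac muscle genes fell in 8 of 10, with sums of 124 to 233 CPM in isotype and 185 to 764 CPM in saline libraries; Myl7, an atrial light chain, had 7.68, 16.7, 7.78 and 15.2 CPM against 15.3 to 61.6 CPM with a median of 31.8, with -1.52 ± 0.37 (adjusted p = 0.00097). None of these was called in number range 1 alone, and 1 was in number range 2. The skeletal muscle list summed to 6.93 to 127.9 CPM in isotype and 7.48 to 13.2 CPM in saline libraries. Its 1 call, Myh2, rested on isotype replicate 1 alone: 11.3, 0, 0 and 0.0982 CPM against 0 to 0.187 CPM with a median of 0, with 4.52 ± 1.58 (adjusted p = 0.0177) and, without that library, -0.76 and no call. Red blood cell genes summed to 542 to 3185 CPM in isotype and 3332 to 5253 CPM in saline libraries. Alas2, the heme synthesis enzyme of red cell precursors, had 78.6, 33.2, 12.4 and 28.8 CPM against 98.4 to 146 CPM with a median of 117, with -1.68 ± 0.59 (adjusted p = 0.0182). Hbb-bs had no count in any isotype library and 780 over the saline group, but saline replicate 2 also had none; globin copies are near identical and their reads may be assigned unevenly. The number of red cell genes called lower was 4 without isotype replicate 1, 0 without replicate 3 or 4, and 1 without isotype replicate 2 or saline replicates 1, 3, 6 or 7. Epb42, a red cell membrane protein, was higher, with 2.82, 3.17, 3.04 and 3.04 CPM against 0.133 to 1.96 CPM with a median of 1.08, by 1.69 ± 0.37 (adjusted p = 0.000293).

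The number ranges allow the comparison to be made in libraries that are wholly separate. In number range 1, with 3 isotype and 2 saline libraries, 2369 of 15471 genes were called (15.3%). In number range 2, with 1 isotype and 5 saline libraries, 4579 of 16090 were called (28.5%), the single isotype library being assumed to vary like the other groups. Over the genes tested in both, 1764 genes were called in each, which is 74.5% of the calls in range 1 and 38.8% of those in range 2, and all 1764 had the same sign. Of the genes called in range 1, 98.9% had the same sign in range 2, against 83.9% of all genes. For Ccl11 the value was 4.69 ± 0.80 in range 1 and 2.57 ± 0.57 in range 2, for Arg1 6.86 ± 1.51 and 5.49 ± 0.95, and for Spp1 6.27 ± 1.15 and 3.53 ± 0.80. Lcn2 had 4.36 ± 0.96 and 5.13 ± 0.46, and Rtkn2 -1.69 ± 0.37 and -1.88 ± 0.44. Il5 was called in range 1 at 3.07 ± 0.98 and not in range 2 at 1.15 ± 1.29, and Il13, Ncr1 and Il1rl1 (0.72, adjusted p = 0.157) also missed the threshold in range 2. Fabp4 (adjusted p = 0.174) and Gsta2 (adjusted p = 0.0671) missed it in range 1, as did Cd22, Myl7 and Myh2; Myl7 and Myh2 missed it in range 2 too.

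The same split gives a look at the 2 chronic groups with no library in common, added after the main values were seen. HDM15wk against Saline in number range 2 (2 and 5 libraries) called 43% of genes, and in number range 1 (5 and 2 libraries) 27.1%. HDM15wk_Iso in number range 1 and HDM15wk in number range 2 shared 2145 called genes, 90.6% of the calls of HDM15wk_Iso and 31.3% of those of HDM15wk, all with the same sign, where 85.6% of all genes had the same sign. HDM15wk_Iso in number range 2 and HDM15wk in number range 1 shared 2857, which is 62.9% and 68.2%, again all with the same sign, against 83.9% of all genes. For Ccl11 the pair was 4.69 ± 0.80 and 3.64 ± 0.45, for Arg1 6.86 ± 1.51 and 5.48 ± 0.86, and for Ncr1 -2.04 ± 0.47 and -3.65 ± 0.58.

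**Figure D5:**
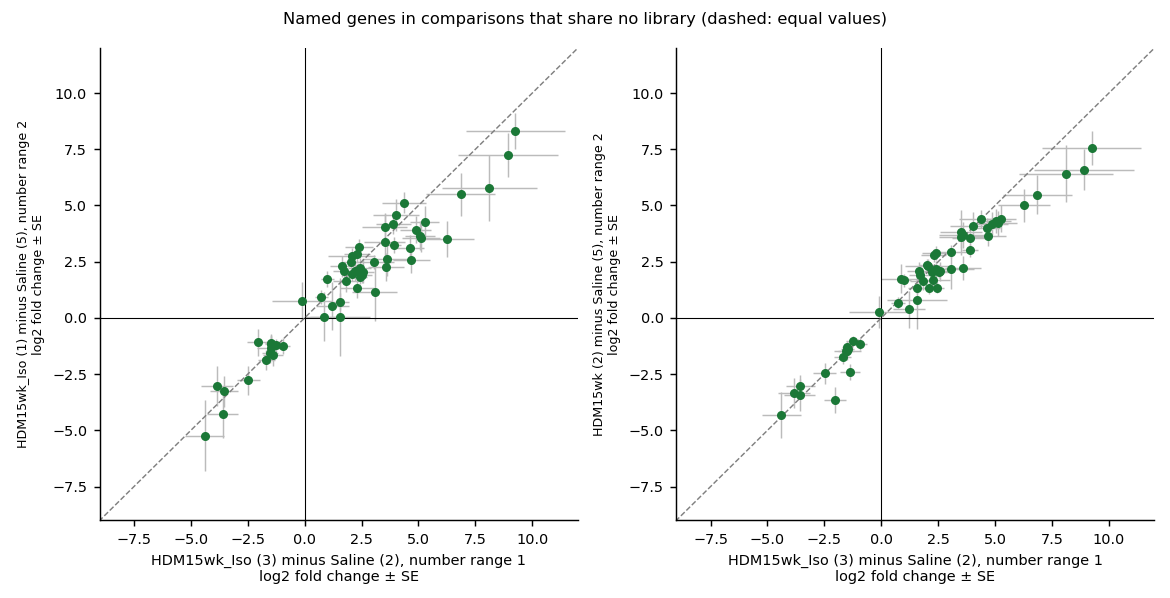
log2 fold changes ± SE of 56 named genes in HDM15wk_Iso against Saline of number range 1 (horizontal axis) and, on the vertical axes, in HDM15wk_Iso (left panel) or HDM15wk (right panel) against Saline of number range 2; the axes share no library, and 5 genes at 0 in all libraries of a group within a range are left out. The dashed line marks equal values, and Ifng is the drawn gene whose sign differs.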

How the data were processed

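Lung total RNA was made into stranded mRNA libraries, per the labels' protocols. The deposited files hold whole-number counts for each Entrez gene ID, which the authors did not normalize, and GRCm38 is the genome build per the submitters' processing notes. The aligner, counting tool and strand setting are nowhere stated in those notes, so antisense and near-identical genes are uncertain. Of 24475 IDs, 24375 were matched to a symbol; the other 100 held 2.62% of counts and stayed in the totals.

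All 43 libraries entered 1 fit in edgeR 4.0.16 (R 4.3.3, quasi-likelihood test, TMM factors, filterByExpr) with terms for group and number range. Benjamini-Hochberg adjustment ran over all 15598 genes kept. Error values beside fold changes are approximate SEs, derived from the fold change and the F statistic of the fit that gave them. Alternatives used DESeq2 1.42.0, limma-voom (limma 3.58.1), other factors, filters and designs, each number range alone, corrections for GC content and gene length, and each library left out. The fit was tested on simulated data. Promoters came from RefSeq (GRCm38.p6). Figures used Python 3.11.15 with matplotlib. No 2 libraries were found to be duplicates.

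The members and lists were chosen with earlier results of these data known. The rule for named genes took, among called genes with non-overlapping groups, the 5 largest rises and 5 largest falls whose higher group averaged 2 CPM or more. Predicted genes, clone names, pseudogenes and immunoglobulin or T cell receptor segments were passed over. It added the 2 members with the smallest p from core lists and 1 from each other list, and a fixed set of 14 names.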

Additional observations from a re-analysis of the deposited data

Results flagged for a closer look

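In 121 groups of values (each named gene in each of the 2 groups, where they could be tested) 14 held a library set apart from the rest of its group by Dixon's criterion. A rate of about 1 in 20 groups holds only for independent values with a normal distribution. The values here were unlogged CPM of genes picked in part from these same data. The share of 14 of 121 therefore cannot be set against that rate.

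In the isotype group, replicate 4 was apart in 3 genes. It was the highest for Lcn2 (3210 CPM, the next at 1806) and Ccl19 (13.6 CPM, the next at 8.70) and the lowest for Ccl8 (39.2 CPM, the next at 56.8). Replicate 1 was the highest for Mzb1 (214 CPM, the next at 122) and for the skeletal muscle gene Myh2 (11.3 CPM, the next at 0.0982). Replicate 2 was the highest for Sult1d1 (3.41 CPM, the next at 0.884) and Rtkn2 (82.9 CPM, the next at 66.2). Replicate 3 was the lowest for Gata2 (19.7 CPM, the next at 35.9).

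Saline replicate 5 was the highest of its group in 4 genes. These were Il33 (133 CPM, the next at 89.6), Itih4 (136 CPM, the next at 86.8), Derl3 (6.82 CPM, the next at 3.65) and Awat1 (1.09 CPM, the next at 0.133). Saline replicate 1 was the highest for Il4 (0.666 CPM, the next at 0.277), and saline replicate 3 for Npy (0.841 CPM, the next at 0.133).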

How the results depend on the processing

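With all 43 libraries, other size factors, filters, tools and designs left between 7211 and 7794 genes called in HDM15wk_Iso against Saline. A fit of only the 2 groups compared called 8439. Leaving out HDM15wk replicate 1 and HDM4wk replicate 3, which lie outside the comparison, raised the number to 9478. All of these were within 1.5 times of 7374. Number range 1 alone gave 2369 (1158 higher, 1211 lower) and number range 2 alone 4579 (1959 of them lower), each with fewer libraries. Leaving out 1 isotype library gave 6131 to 7214 genes (3281 to 3650 higher, 2810 to 3564 lower), and leaving out 1 saline library gave 6739 to 7324 (3405 to 3750 higher, 3334 to 3574 lower). The correction for GC content and gene length gave 4103 higher and 3691 lower. HDM15wk_Iso against HDM15wk, with 0 calls in edgeR, had 5 with upper-quartile factors, 7 with no filter on low counts, 4 with no number range term, 1 in number range 2 alone, 1 without HDM15wk replicate 1 and HDM4wk replicate 3, and 8 in DESeq2; the cause was not tested. Leaving out 1 library gave 0 to 11, with 11 without isotype replicate 1, 8 without replicate 4, 7 without replicate 3, and 4 and 1 without HDM15wk replicates 6 and 5. Of the values of single named genes under these alternatives 1397 kept their side of the threshold without reversing a called value, 16 lost the call, 3 gained it and 1 (Myh2 in DESeq2) had no adjusted p. The only called value that reversed was Myh2, which spanned -0.76 (without isotype replicate 1, adjusted p = 0.855) to 5.15 over the libraries left out. Ifng, not called at 0.01, ran between -0.49 and 0.75 and so took either sign. No paired analysis was possible because the replicate numbers were given in accession order and mark no shared animal or batch. Depth limits what can be seen of the cytokines: Ifng had at most 5 counts in an isotype library and 7 in a saline library, and Il4 at most 9 in an isotype library and 5 in a saline library.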
